A study of Mus musculus with 48 samples.

Results

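The genes described here encode the synaptic vesicle release machinery, a module of 80 genes chosen by symbol from the 24421 genes of the count table. The symbols taken were the synaptotagmins, synapsins, syntaxins, syntaxin-binding proteins, SNAP proteins, VAMP proteins, complexins, RIM and Unc13 proteins with Rimbp2, the Rab3 GTPases, and the vesicle membrane proteins of the SV2, synaptophysin, synaptoporin and synaptogyrin families with Svop. RNA from the hippocampal CA region of male mice, 8 weeks old in the labels, was sequenced as 48 libraries. In the Glu-CB1 line, nex-Cre removed the floxed cannabinoid type-1 receptor gene (CB1, Cnr1) from dorsal telencephalic glutamatergic neurons, and in the GABA-CB1 line dlx5/6-Cre removed it from forebrain GABAergic neurons. The CB1-WT mice of each line were littermates of the CB1-KO mice, and every other cell type of a CB1-KO mouse kept the receptor gene. Mice of each genotype were taken either from the home cage (basal) or after a 5-min open field (OF). The study's text states that tissue was isolated with a delay after the open field, not directly at its end. The groups held 5 Glu-CB1-WT and 7 Glu-CB1-KO libraries at basal state, 5 and 7 after OF, 6 GABA-CB1-WT and 6 GABA-CB1-KO libraries at basal state, and 7 and 5 after OF, as the sample labels assign them. The study's text gives the sizes of the GABA-CB1 OF groups the other way round, and the labels were followed.

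Neurotransmitter release depends on a chain of proteins that act at the presynaptic membrane. Vesicles are tethered and primed at the active zone by Rab3, RIM and Munc13 (Unc13) proteins, the SNARE proteins VAMP, syntaxin and SNAP-25 zip together and drive membrane fusion, complexins regulate that assembly, and synaptotagmins sense the calcium that triggers it. CB1 is a presynaptic receptor whose activation by endocannabinoids lowers release from the terminals that carry it, in the hippocampus mainly those of cholecystokinin interneurons and, at lower density, of pyramidal neurons. Bulk tissue measures the sum over all cell types, so fewer cells of a type and less RNA per cell cannot be told apart.

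In all, 7 members passed the test in at least 1 of 12 comparisons, namely Svop, Rimbp2, Vamp1, Unc13b, Rab3b, Rab3c and Syt9. They are 9.46% of the 74 members tested, beside 3.5% of the 15472 genes tested in any comparison. The 250 bases upstream of the transcription start of 5 of them are printed here, from RefSeq on build GRCm38.p6 and 5′ to 3′ on the gene's strand, because Rab3b and Rab3c are the pair that differed between the lines after OF and Rimbp2, Vamp1 and Unc13b are those that were lower in GABA-CB1-KO hippocampi. Capitals mark every match, on either strand, to the 4 motifs searched, which were the cAMP response element TGACGTCA, the GC box GGGCGG, the E-box CAGATG and the TATA box TATAAA. No promoter entry was used for Svop.
Rab3b (chr4:108878820-108879069, plus strand): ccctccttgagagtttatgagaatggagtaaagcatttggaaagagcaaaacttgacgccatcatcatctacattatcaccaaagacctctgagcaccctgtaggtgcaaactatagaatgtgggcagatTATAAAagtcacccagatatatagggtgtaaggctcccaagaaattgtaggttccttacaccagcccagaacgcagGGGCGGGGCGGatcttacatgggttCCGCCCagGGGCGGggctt
Rab3c (chr13:110280207-110280456, minus strand): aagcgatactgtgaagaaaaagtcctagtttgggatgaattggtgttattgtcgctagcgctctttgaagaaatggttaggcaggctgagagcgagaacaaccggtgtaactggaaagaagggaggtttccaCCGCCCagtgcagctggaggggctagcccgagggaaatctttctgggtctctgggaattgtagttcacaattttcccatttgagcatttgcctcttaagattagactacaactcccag
Rimbp2 (chr5:128953487-128953736, minus strand): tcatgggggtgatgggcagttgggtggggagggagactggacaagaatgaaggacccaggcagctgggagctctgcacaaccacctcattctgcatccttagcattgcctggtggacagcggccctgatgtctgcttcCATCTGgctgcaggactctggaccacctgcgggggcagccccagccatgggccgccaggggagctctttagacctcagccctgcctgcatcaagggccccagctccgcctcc
Vamp1 (chr6:125215331-125215580, plus strand): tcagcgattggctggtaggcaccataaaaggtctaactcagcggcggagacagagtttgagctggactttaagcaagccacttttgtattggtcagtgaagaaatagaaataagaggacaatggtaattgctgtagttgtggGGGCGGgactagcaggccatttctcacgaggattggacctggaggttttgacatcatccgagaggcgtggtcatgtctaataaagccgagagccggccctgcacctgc
Unc13b (chr4:43058703-43058952, plus strand): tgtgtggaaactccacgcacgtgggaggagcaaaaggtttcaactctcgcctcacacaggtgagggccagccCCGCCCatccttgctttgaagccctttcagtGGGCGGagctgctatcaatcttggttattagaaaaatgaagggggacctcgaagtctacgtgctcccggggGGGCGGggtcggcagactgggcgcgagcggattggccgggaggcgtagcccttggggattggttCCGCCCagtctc

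The Rab3b sequence held 4 GC boxes, of which the first pair overlapped, and 1 TATA box, and the Rab3c sequence held 1 GC box. Unc13b had 4 GC boxes and Vamp1 had 1, while the sole match in Rimbp2 was an E-box. None of the 5 held a cAMP response element. Over the 32851 promoter windows of the same length in the reference, 32.7% held a GC box, 12.4% a TATA box, 14.4% the E-box CAGATG and 1.55% a cAMP response element. Promoter windows were present for 60 of the 80 members, in 77 entries, of which 47 held a GC box. A match is only a run of letters in this window.

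Total counts ranged from 25892654 to 34091080 per library. Cnr1 separated the genotypes as labelled. Its level, in CPM (counts scaled to library size, on a scale common to all libraries), was 330 to 412 in the Glu-CB1-WT libraries and 204 to 249 in the Glu-CB1-KO libraries, and 311 to 394 in GABA-CB1-WT against 100 to 158 in GABA-CB1-KO libraries. The summed level of 7 choroid plexus markers exceeded 200 CPM in 4 libraries, each of another group, namely GABA-CB1-KO OF replicate 4 (4067 CPM), GABA-CB1-WT basal replicate 3 (1520 CPM), Glu-CB1-KO basal replicate 6 (639 CPM) and Glu-CB1-KO OF replicate 4 (287 CPM). In GABA-CB1-KO against GABA-CB1-WT mice all 7 were lower at basal state (median log2 difference -0.86) and all 7 higher after OF (2.21), and in the test of the change between the states all 7 were higher (3.03), with 0 called in each. Each comparison holds only those of these 4 libraries that belong to its groups. Without them the calls of Rab3c after OF (adjusted p = 0.0557) and of Svop in the pooled Glu-CB1 comparison (adjusted p = 0.0968), both described further on, were lost. Both calls were also lost in most fits that left out any 1 library. The library GABA-CB1-KO OF replicate 1 stood apart for several members, which are given further on. Its Cnr1 level was 155 CPM, within the range of the other GABA-CB1-KO libraries.

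Of the 80 members, 74 had enough counts to be tested. Stx11, Stx19, Cplx4, Syngr4 and Syt8 had at most 11 counts in any library, and Vamp7, which the annotation places on an unplaced contig of chromosome X, had 0 in all 48. Levels between genes were compared per length, as the mean CPM over the 48 libraries per kilobase (kb) of exon. On this scale the tested members spanned a 5860-fold range, and the 10 highest made up 65.9% of the sum over the module.

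**Figure D1:**
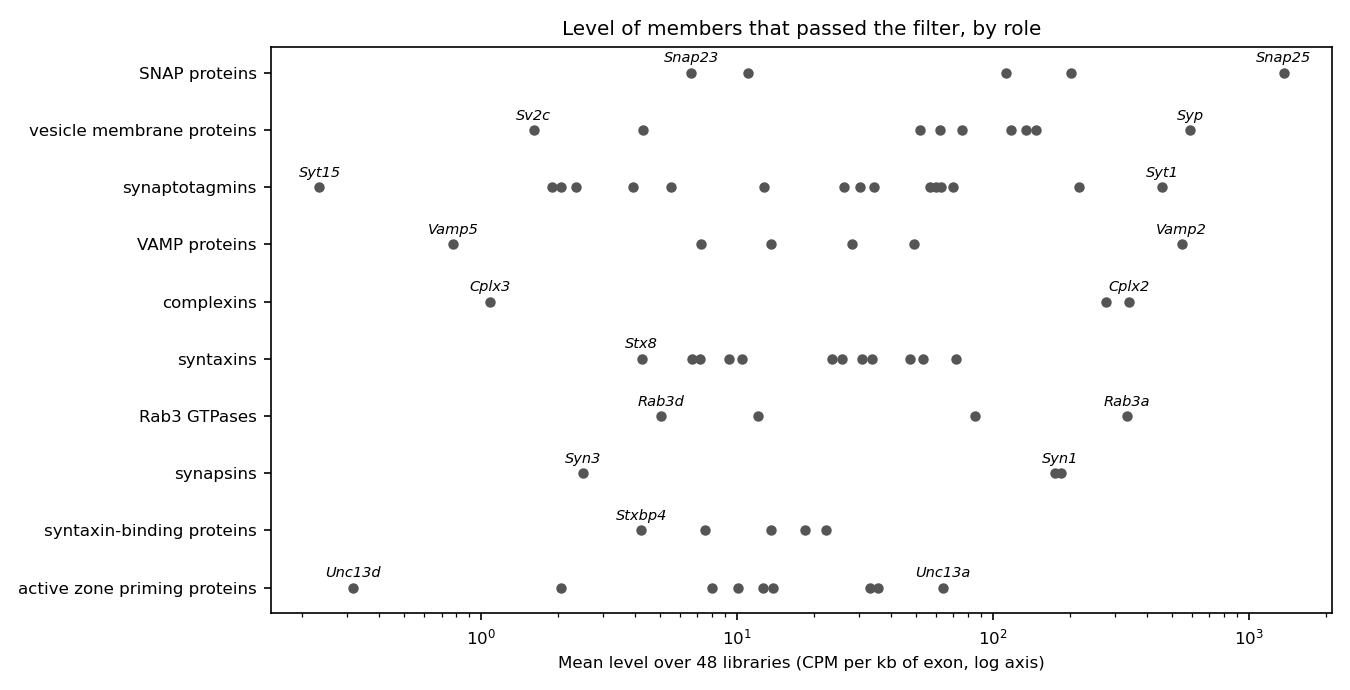
Mean level of the tested members reported here over 48 libraries, in CPM per kb of exon on a log axis, with 1 row per role and, for most roles, the highest and lowest member named. Snap25 is the highest of all at 1368 CPM per kb and Syt15 the lowest at 0.233 CPM per kb.

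Among the SNARE proteins, Snap25 had 1368 CPM per kb and the vesicle SNARE Vamp2 546. The calcium sensor for fast release, Syt1, stood at 459 CPM per kb, while Syt11, which does not bind calcium, followed at 217. The vesicle membrane protein synaptophysin (Syp) had 590 CPM per kb, the complexin Cplx2 341, Rab3a 333, the vesicle-clustering synapsins Syn1 and Syn2 184 and 174, and the priming factor Unc13a 63.7. The lowest tested member of each role was Snap23, Vamp5, Stx8, Syt15, Sv2c, Cplx3, Rab3d, Stxbp4, Syn3 and Unc13d, from 0.233 to 6.61 CPM per kb. Snap91 (112.6 CPM per kb), a clathrin assembly protein, carries a SNAP symbol but is no SNARE.

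Members differed little between libraries. The highest of the 48 libraries exceeded the lowest by less than 1.5-fold for 50 of the 74 tested members and by more than 2-fold for 9, which were Stxbp6 (18.4 CPM per kb) and 8 members of at most 2.35 CPM per kb. Sv2a, a vesicle glycoprotein, ranged from 427.8 to 490.5 CPM. Snap25 group means lay between 2948 and 3194 CPM with SDs of 122 to 262, and Syt1 group means between 2095 and 2267 CPM.

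The first comparison asked what loss of CB1 from glutamatergic neurons changed in the module at basal state, and no member passed. Glu-CB1-KO and Glu-CB1-WT hippocampi were compared with edgeR's quasi-likelihood test, with p-values adjusted over all genes tested. The count was 0 of 74 members, where 0.0198% of the 15138 genes tested passed. At an unadjusted p under 0.05 there were 4 members (5.41%, against 3.57% of all genes), and DESeq2 also called 0, where it called 0.0793% of all genes. The log2 fold changes of the members ran from -0.16 to 0.33, 51 were higher and 23 lower, and their median was 0.02 beside -0.00091 over all genes.

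The member nearest to the threshold was Svop, which encodes a synaptic vesicle protein related to the SV2 transporters (chr5:114026913-114091380, minus strand). Its CPM was 185, 212, 194, 197 and 181 in the Glu-CB1-WT libraries, and the Glu-CB1-KO libraries ran from 203 to 219 with a median of 208.5. A single wild-type library, replicate 2, lay within the knockout range. The log2 fold change was 0.11 (SE 0.038, 95% interval 0.03 to 0.19) with an adjusted p of 0.999. All 9 GABAergic neuron markers (median 0.09) and all 6 dentate granule cell markers (0.09) were higher in this comparison. Of 6 CA3 and CA2 markers, 5 were lower (-0.06), and 0 were called in each list. Their part in these values was not tested.

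After OF, the same genotype comparison in the Glu-CB1 line gave 1 called member of 74, the synaptotagmin Syt9, where 0.272% of 15078 genes passed. Syt9 (chr7:107370790-107548655, plus strand) encodes a calcium-binding synaptotagmin of vesicles. It had 5.56, 6.42, 5.42, 4.83 and 4.75 CPM in the Glu-CB1-WT libraries and 7.46 to 8.69 CPM, median 7.85, in the Glu-CB1-KO libraries, so that the groups did not overlap. Syt9 rose by 0.58 on the log2 scale (SE 0.082, adjusted p = 0.00604), and it stayed called without any single library. It was not called with all 48 libraries in a single fit (adjusted p = 0.250). At an unadjusted p under 0.05 there were 9 members (12.2%), 8 of them higher, beside 6.97% of all genes.

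The basal values of Syt9 were more scattered than those after OF. Glu-CB1-WT libraries had 4.35, 7.23, 9.59, 5.93 and 7.27 CPM at basal state, and Glu-CB1-KO libraries 4.66 to 10.2 CPM. The basal log2 difference was 0.08 (SE 0.21), and the difference between the states, 0.50 (SE 0.24, adjusted p = 1.000), did not pass. In the GABA-CB1 line the KO against WT difference of Syt9 was 0.37 (SE 0.15, adjusted p = 0.561) at basal state and 0.06 (SE 0.13, adjusted p = 0.859) after OF.

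Markers moved in this comparison as well. Of 8 thalamus markers 4 were lower, with Prkcd (-0.58, adjusted p = 0.00309) and Plekhg1 (-0.42, adjusted p = 0.0424) called, all 9 GABAergic neuron markers were higher, with Npy (0.55, adjusted p = 0.0185) called, and all 6 CA3 and CA2 markers were lower, with Iyd (-0.56, adjusted p = 0.0463) called. Oligodendrocyte (6 of 6, median -0.11), dentate granule cell (6 of 6, -0.04) and microglia markers (5 of 5, -0.06) were lower with 0 called. Their part in the result was not tested.

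Rab3b, a vesicle-bound small GTPase, was the second member in that comparison. Its levels were 34.4, 38.8, 33.4, 35.5 and 32.6 CPM in Glu-CB1-WT OF libraries and 39.2 to 47.9 CPM, median 42.4, in Glu-CB1-KO OF libraries, again with no overlap. Groups without overlap were seen for 2 members, Syt9 and Rab3b, and for 0.743% of all genes. The log2 difference of Rab3b was 0.28 (SE 0.059, adjusted p = 0.0698), and the adjusted p was 0.0306 without Glu-CB1-WT OF replicate 2 and 0.00233 with DESeq2, which called 0.816% of all genes. With the states pooled, Svop was called at a log2 fold change of 0.10 (SE 0.022, adjusted p = 0.0487) where 0.274% of genes passed; at an unadjusted p under 0.05 there were 7 members (9.46%), beside 7.31% of all genes. The Svop call was lost in 20 of the 24 fits that left out 1 library, with adjusted p-values up to 0.145. It held without Glu-CB1-KO basal replicate 6, Glu-CB1-WT basal replicate 2, Glu-CB1-WT OF replicate 2 or Glu-CB1-KO OF replicate 7. Without Glu-CB1-WT basal replicate 3 the called member was Rab3b instead. In this pooled comparison all 9 GABAergic neuron markers were higher (median 0.11), with 2 called. All 6 CA3 and CA2 markers were lower (-0.13) with 0 called, and 4 of 8 thalamus markers were lower with 1 called. The part of these markers in the pooled result was not tested.

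**Figure D2:**
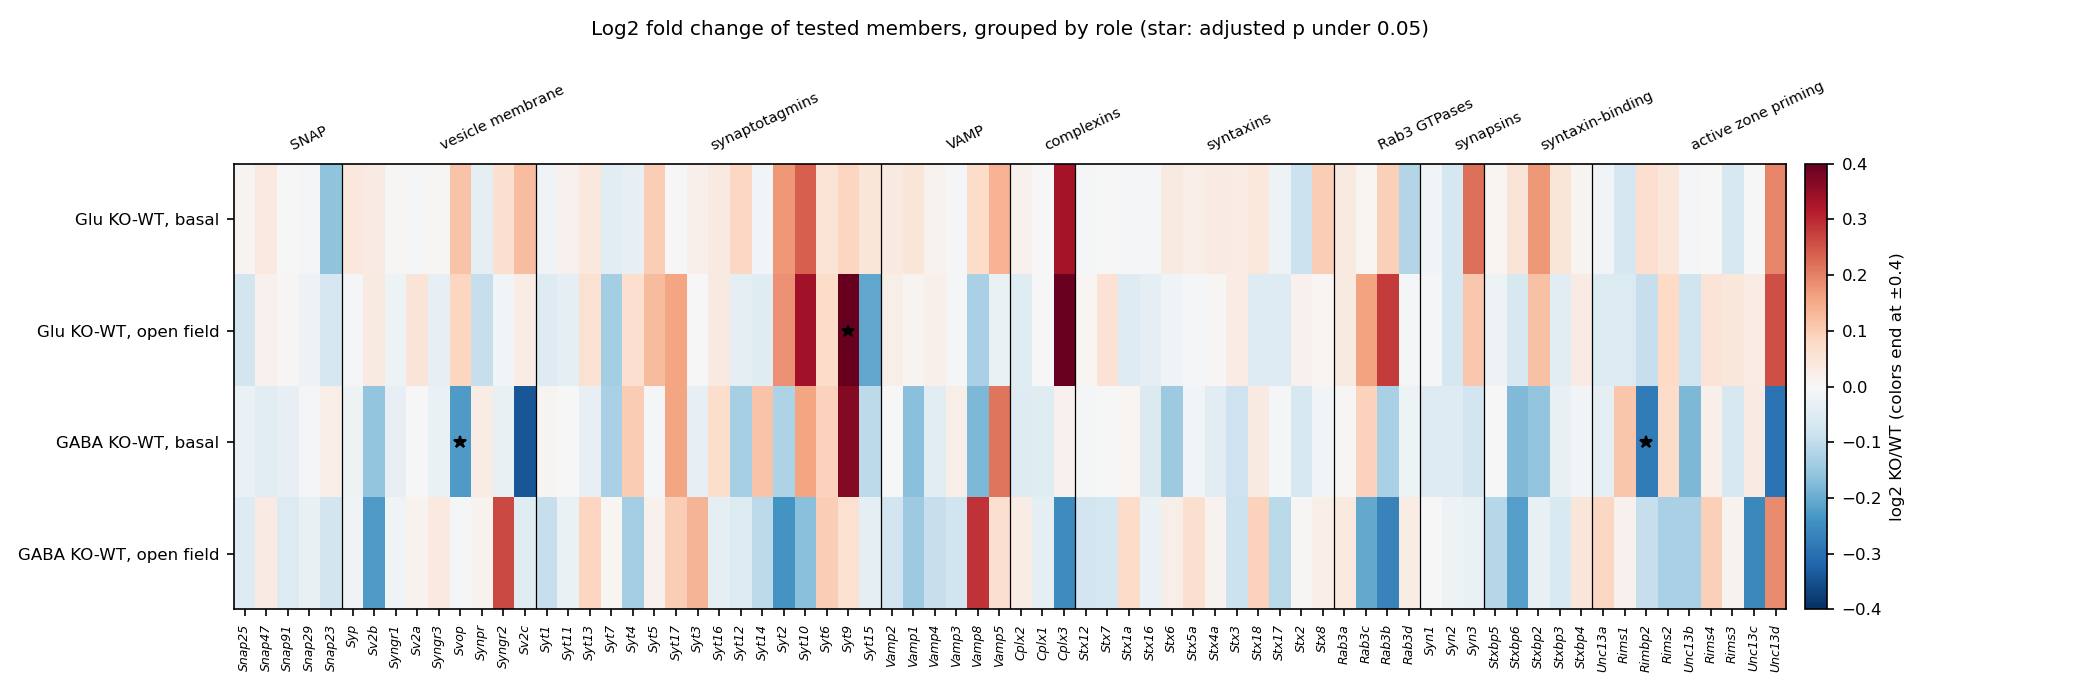
Log2 fold change of CB1-KO against CB1-WT (color, ends at ±0.4) for the tested members reported here, ordered by role from left to right, in the 4 comparisons of line and state (rows); stars mark adjusted p under 0.05. The stars fall on Syt9 after OF in the Glu-CB1 line and on Svop and Rimbp2 at basal state in the GABA-CB1 line.

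Loss of CB1 from GABAergic neurons was next compared at basal state, and it gave 2 called members, both lower. They were Svop and Rimbp2, the latter an active zone scaffold that links RIM to presynaptic calcium channels. The 2 called members of 74 stand beside 0.245% of 15082 genes. At an unadjusted p under 0.05 there were 12 members (16.2%), beside 8.16% of all genes. DESeq2 called 5 members and 0.729% of all genes. In this comparison 51 members were lower and 23 higher, with a median of -0.03 beside -0.00054 over all genes.

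Svop ranged from 191 to 204 CPM, median 201, in the GABA-CB1-WT basal libraries and from 167 to 174 CPM, median 171, in the GABA-CB1-KO basal libraries. All 6 knockout libraries lay below all 6 wild-type libraries. Of the other 42 libraries, GABA-CB1-KO OF replicate 5 alone (173 CPM) lay within the knockout range. Svop fell by 0.23 on the log2 scale (SE 0.024, adjusted p = 6.68e-04), and it remained called under all 9 alternatives and without any single library, with adjusted p-values up to 0.0452.

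Rimbp2 (chr5:128760401-128953362, minus strand) showed the same order of groups. It ranged from 138 to 160.0 CPM, median 147, in GABA-CB1-WT and from 115 to 129 CPM, median 119.7, in GABA-CB1-KO basal libraries. The groups did not overlap, and Rimbp2 fell by 0.28 on the log2 scale (SE 0.040, adjusted p = 0.00621). The adjusted p was 0.110 with all 48 libraries in a single fit.

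Stx6, a syntaxin of the trans-Golgi network, also had groups without overlap, at 75.9 to 81.8 CPM in wild-type and 69.7 to 75.8 CPM in knockout libraries. Its log2 difference was -0.15 (SE 0.030) with an adjusted p of 0.0753. The 3 members without overlap stand beside 0.709% of all genes. Vamp1, a vesicle SNARE of fast-spiking and brainstem neurons, differed by -0.17 (SE 0.038, adjusted p = 0.114) and Unc13b, the Munc13-2 priming factor, by -0.18 (SE 0.045, adjusted p = 0.168). Neither of these passed at basal state alone. Among 6 CA3 and CA2 markers, 4 were lower in this comparison and Bok was called (-0.52, adjusted p = 0.00328), and 6 of 9 GABAergic neuron markers were lower with 0 called. The lists that moved wholly one way were the choroid plexus (7 of 7 lower, median -0.86), oligodendrocyte (6 of 6 higher, 0.15), vascular (5 of 5 lower, -0.09) and microglia markers (5 of 5 lower, -0.04), and 5 of 6 dentate granule cell markers were lower (-0.19), with 0 called in each. The part of these markers in the result was not tested.

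After OF, no member passed in the GABA-CB1 line, with or without 1 knockout library that stood apart for several members. The edgeR count was 0 of 74 members where 0.0199% of 15097 genes passed. At an unadjusted p under 0.05 there were 16 members (21.6%), of which 11 were lower, beside 13.2% of all genes. DESeq2 called 3 members, Rab3b, Rab3c and Vamp1, and 0.941% of all genes. In this comparison 6 of 6 CA3 and CA2 markers were higher (median 0.07) and 8 of 9 GABAergic neuron markers lower (-0.11), with 0 called; their part in these values was not tested.

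Svop had 249, 181, 188, 176 and 173 CPM in GABA-CB1-KO OF replicates 1 to 5 and 190.5 to 198 CPM, median 195, in the GABA-CB1-WT OF libraries. Replicates 2 to 5 lay below every wild-type library, while replicate 1 was the highest of all 48 libraries. The log2 difference was -0.01 (SE 0.072, adjusted p = 0.968) with all libraries and -0.12 (SE 0.031, adjusted p = 0.186) without replicate 1. Without that library the count in this comparison stayed at 0 members, where 0.0726% of 15154 genes passed.

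The same library stood high for other members of the GABA-CB1 line. Rimbp2 had 167, 119.8, 122, 136 and 116 CPM in GABA-CB1-KO OF replicates 1 to 5 against 129 to 148 CPM in wild-type libraries. Sv2b, a vesicle glycoprotein of the SV2 family, had 878, 707, 698, 640 and 727 CPM against 782 to 944 CPM. In both cases replicate 1 lay within or above the wild-type range and replicate 5 below it. Replicate 1 was the highest of 48 libraries for 7 members (Snap91, Syn1, Syn2, Syt13, Syt3, Sv2a and Svop) and the lowest for 3 (Unc13c, Stxbp4 and Rab3b). It also held the highest CA3 and CA2 marker sum (640 CPM, against 439.7 to 630.1 in the others) and the highest astrocyte marker sum of all libraries (1786 CPM). The part of these markers in its values was not tested.

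**Figure D3:**
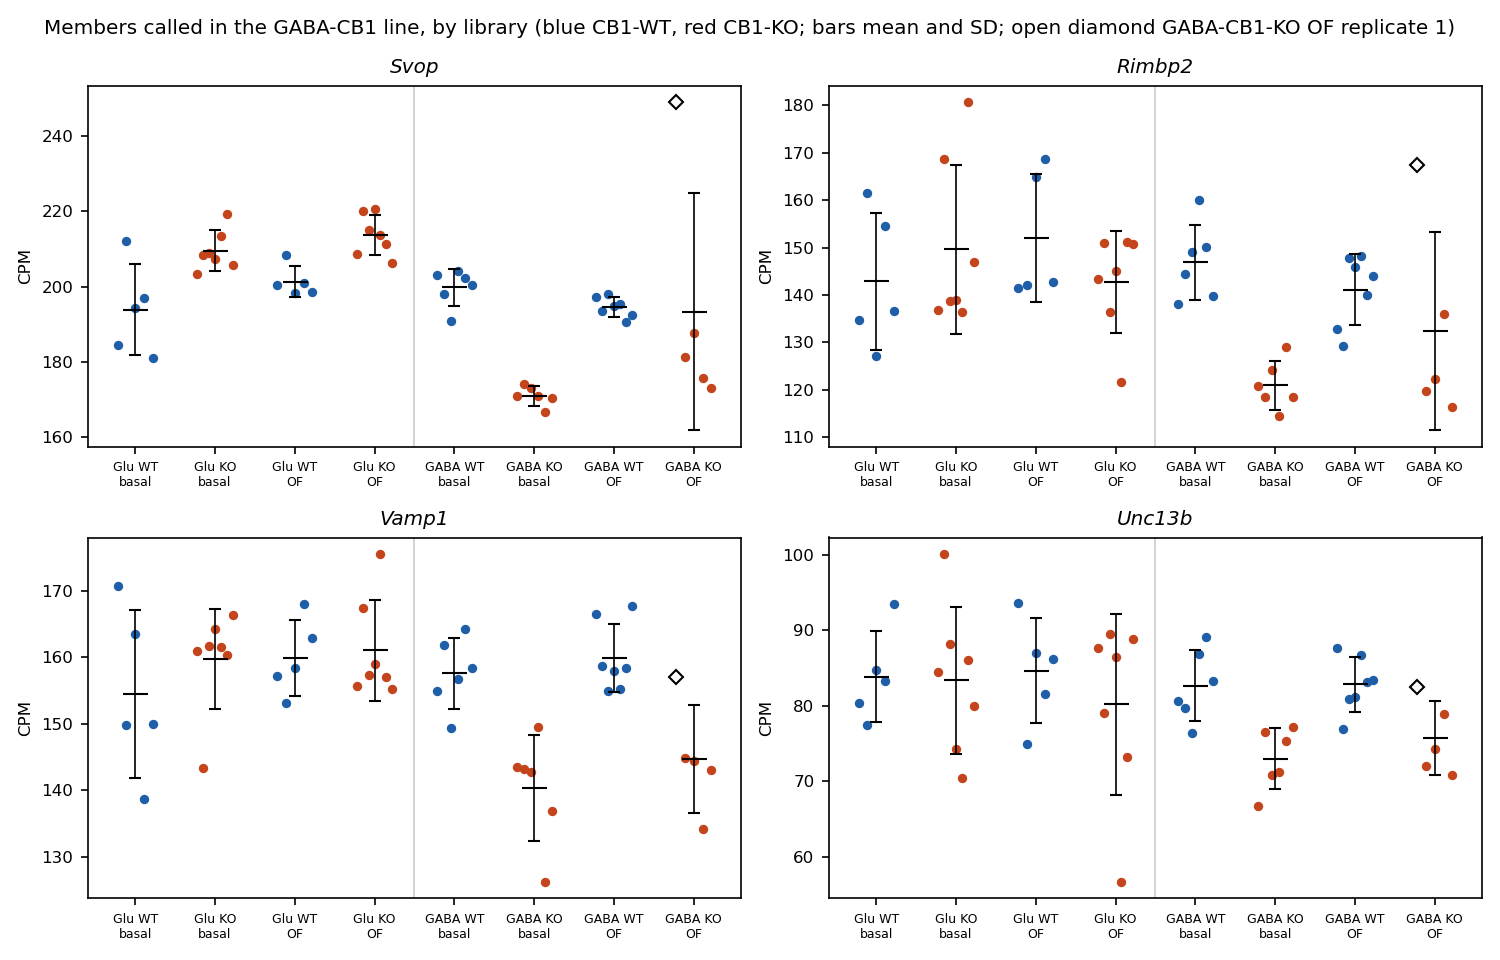
Level of Svop, Rimbp2, Vamp1 and Unc13b in CPM (y axes, not from 0) for each of 48 libraries in the 8 groups (x axes); blue points are CB1-WT, red points CB1-KO, bars the mean and SD, and the open diamond GABA-CB1-KO OF replicate 1. Svop shows all GABA-CB1-KO libraries below the GABA-CB1-WT libraries except the diamond at 249 CPM.

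Pooling the states of the GABA-CB1 line, with state as a term, gave 2 called members, Vamp1 and Unc13b, where 0.358% of 15374 genes passed. Without adjustment the count was 13 members (17.6%) at p under 0.05, beside 8.18% of all genes. Vamp1 (chr6:125215581-125222306, plus strand) ranged from 149 to 164 CPM in wild-type and 126 to 150 CPM in knockout basal libraries. After OF it ranged from 155 to 168 CPM in wild-type libraries and had 157, 145, 144, 134 and 143 CPM in knockout libraries. Vamp1 fell by 0.16 on the log2 scale (SE 0.026, adjusted p = 0.00253) and remained called without any single library and under all 9 alternatives.

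Unc13b (chr4:43058984-43264887, plus strand) had 76.4 to 89.0 CPM in wild-type and 66.7 to 77.2 CPM in knockout basal libraries. After OF the values were 76.9 to 87.6 CPM in wild-type libraries and 82.5, 71.9, 74.3, 78.9 and 70.8 CPM in knockout libraries. The log2 difference was -0.16 (SE 0.032, adjusted p = 0.0210). It was not called without GABA-CB1-KO basal replicate 1, OF replicate 2 or OF replicate 5, where the adjusted p was 0.0507, 0.0528 and 0.0567, nor with all 48 libraries in a single fit, where it was 0.267.

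Without GABA-CB1-KO OF replicate 1 the pooled count rose from 2 to 5 members, all lower, beside 0.888% of 15432 genes. That library was singled out after its Svop and Rimbp2 values were seen, so the adjusted p-values without it are no independent support. Svop then fell by 0.17 (SE 0.020, adjusted p = 1.54e-05), Rimbp2 by 0.24 (SE 0.033, adjusted p = 1.63e-04), Vamp1 by 0.17 (SE 0.025, adjusted p = 3.07e-04), Unc13b by 0.17 (SE 0.031, adjusted p = 0.00398) and Sv2b by 0.22 (SE 0.041, adjusted p = 0.00437). With that library, Sv2b differed by -0.19 (adjusted p = 0.0533), Rimbp2 by -0.19 (adjusted p = 0.0869) and Svop by -0.12 (adjusted p = 0.397). Of 9 GABAergic neuron markers, 7 were lower in the pooled comparison of all libraries, and Sst (-0.31, adjusted p = 8.60e-04) and Pvalb (-0.17, adjusted p = 0.0260) were called. Choroid plexus (7 of 7, median 0.75) and oligodendrocyte markers (6 of 6, 0.07) were higher and vascular markers (5 of 5, -0.08) lower, with 0 called. The part of these markers in the result was not tested. Leaving out GABA-CB1-WT basal replicate 3 or GABA-CB1-KO basal replicate 3 gave 4 called members, Rab3b, Sv2b, Unc13b and Vamp1, beside 0.378% and 0.403% of all genes.

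Snap25, Vamp2, Syt1 and Syp did not pass in any of these comparisons. In the GABA-CB1 line at basal state the log2 difference was -0.03 (95% interval -0.12 to 0.07) for Snap25, -0.0017 (-0.08 to 0.08) for Vamp2, 0.01 (-0.07 to 0.09) for Syt1 and -0.02 (-0.11 to 0.07) for Syp. The widest of these bounds were -0.12 and 0.09 on the log2 scale. By role, 10 of 13 syntaxins (median -0.0097), 8 of 9 vesicle membrane proteins (-0.03) and 5 of 6 syntaxin-binding proteins (-0.04) were lower at basal state in GABA-CB1-KO. Synaptotagmins were split 8 to 8. After OF, 6 of 13 syntaxins, 5 of 9 vesicle membrane proteins and 5 of 6 syntaxin-binding proteins were lower.

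The difference between the lines was tested as an interaction, the Glu-CB1 genotype effect minus the GABA-CB1 genotype effect. At basal state Svop was the called member, 1 of 74 where 0.279% of 15390 genes passed. Its difference was 0.34 on the log2 scale (SE 0.044, adjusted p = 3.14e-04), and it held under all 9 alternatives and without any single library. Side by side, the genotype effects were 0.11 for Glu-CB1 and -0.23 for GABA-CB1 mice. Unadjusted, 8 members (10.8%) had p under 0.05, beside 8.56% of all genes. In the same test Npy was called higher (0.71, adjusted p = 0.00547) and Plekhg1 lower (-0.45, adjusted p = 0.0237), and choroid plexus (7 of 7, median 0.96), dentate granule cell (6 of 6, 0.31) and microglia markers (5 of 5, 0.14) were higher and oligodendrocyte markers (6 of 6, -0.11) lower with 0 called; their part in the Svop difference was not tested. After OF the difference of Svop was 0.09 (adjusted p = 0.722), and 0.20 (SE 0.037, adjusted p = 0.00780) without GABA-CB1-KO OF replicate 1, where 0.618% of 15381 genes passed. That library was singled out after its Svop value was seen, so the second value is no independent support.

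After OF the called members were Rab3b and Rab3c, 2 of 74 where 0.568% of 15325 genes passed. Rab3 GTPases couple vesicles to RIM at the active zone. Rab3b (chr4:108879070-108943324, plus strand) had 37.99 to 46.2 CPM, median 42.3, in GABA-CB1-WT OF libraries and 32.6, 34.6, 36.4, 36.2 and 34.6 CPM in GABA-CB1-KO OF libraries. These groups did not overlap, which held for this member alone in that comparison and for 0.987% of all genes. The GABA-CB1 difference was -0.27 (SE 0.054, adjusted p = 0.134) and the Glu-CB1 difference 0.28, so the lines differed by 0.55 (SE 0.082, adjusted p = 0.00117). The wild types of the lines also differed, since most Glu-CB1-WT OF libraries (32.6 to 38.8 CPM) lay below the GABA-CB1-WT OF range. Glu-CB1-KO OF libraries (39.2 to 47.9 CPM) overlapped that GABA-CB1-WT range. How far the difference between the lines rests on their wild types was not tested. The adjusted p of the difference between the lines stayed between 3.87e-04 and 0.00476 without any single library. At basal state Rab3b had 34.4 to 48.6 CPM in Glu-CB1-WT and 36.1 to 47.9 CPM in Glu-CB1-KO libraries. In the GABA-CB1 line the basal values were 37.2 to 48.1 CPM in wild-type and 34.7 to 43.7 CPM in knockout libraries.

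Rab3c (chr13:110054187-110280206, minus strand) had 653, 725, 690.1, 681 and 623 CPM in Glu-CB1-WT OF libraries and 679 to 864 CPM in Glu-CB1-KO OF libraries. In the GABA-CB1 line it had 687 to 802 CPM in wild-type and 619, 715, 659.5, 588 and 672 CPM in knockout libraries. Both pairs of groups overlapped. For Rab3c too, most Glu-CB1-WT OF libraries lay below the GABA-CB1-WT OF range. The genotype effects were 0.16 and -0.20, and their difference was 0.37 (SE 0.084, adjusted p = 0.0411). That call was lost in 16 of 24 fits without 1 library, with adjusted p-values up to 0.0960, and with all 48 libraries in a single fit (0.137) or the title number range as a covariate (0.0810), and it was 0.0694 without GABA-CB1-KO OF replicate 1. The 8 libraries without which it held were Glu-CB1-WT OF replicate 2, Glu-CB1-KO OF replicates 2, 4 and 7, GABA-CB1-WT OF replicates 1 and 7 and GABA-CB1-KO OF replicates 2 and 5.

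**Figure D4:**
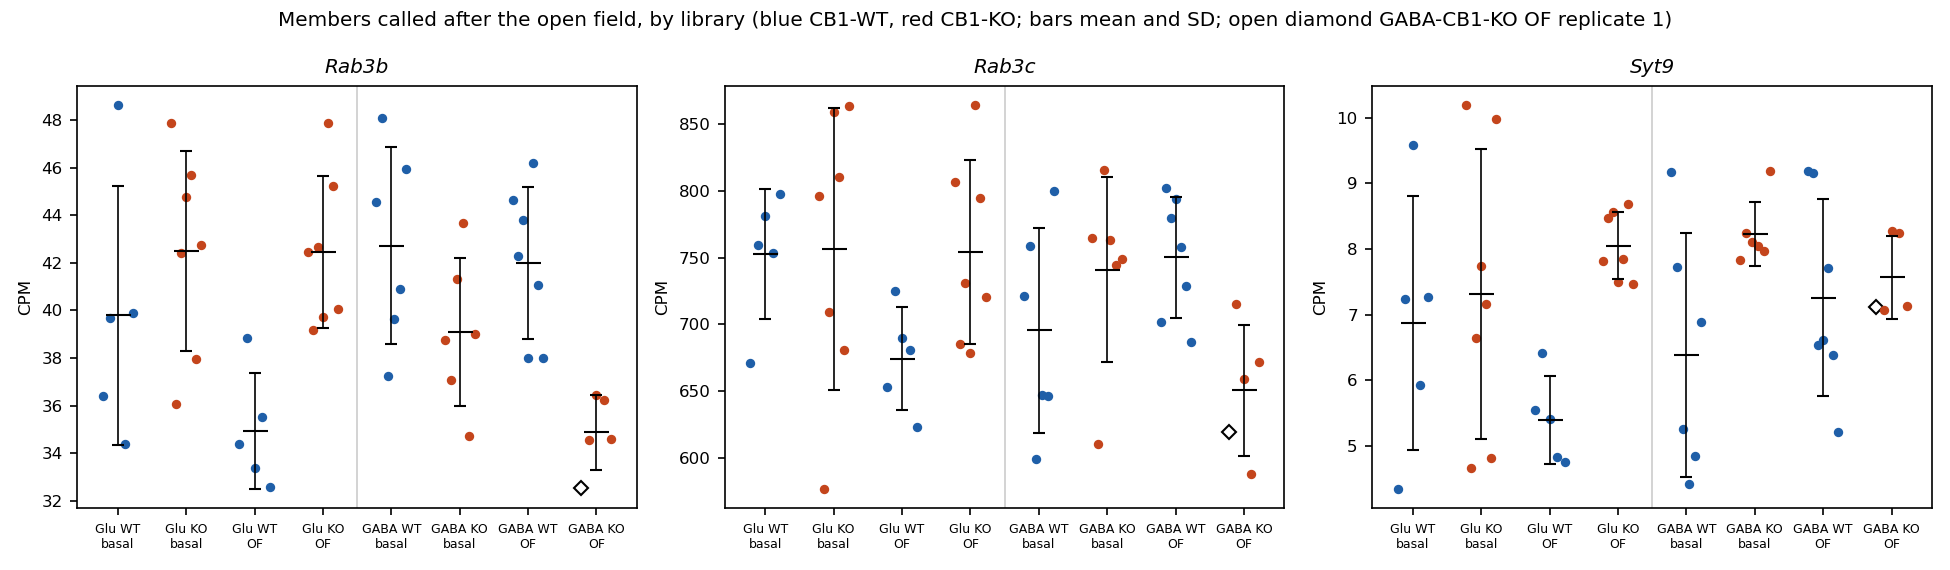
Level of Rab3b, Rab3c and Syt9 in CPM (y axes, not from 0) for each of 48 libraries in the 8 groups (x axes); blue points are CB1-WT, red points CB1-KO, bars the mean and SD, and the open diamond GABA-CB1-KO OF replicate 1. After OF, Rab3b is higher in Glu-CB1-KO (39.2 to 47.9 CPM) and lower in GABA-CB1-KO libraries (32.6 to 36.4 CPM) than in their wild types. At basal state the Rab3b ranges of the genotypes overlap in both lines.

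Markers of GABAergic neurons moved with Rab3b after OF. The summed level of 9 such markers was 731 to 886 CPM in Glu-CB1-WT OF, 883 to 983 in Glu-CB1-KO OF, 854 to 915 in GABA-CB1-WT OF and 777 to 832 CPM in GABA-CB1-KO OF libraries. In the test of the difference between the lines after OF all 9 were higher, and 3 were called, namely Sst (0.78, adjusted p = 0.00108), Npy (0.76, adjusted p = 0.00417) and Gad1 (0.25, adjusted p = 0.00994). CA3 and CA2 markers were lower in the same test for 6 of 6 genes, with a median of -0.29, and CA1 markers split 3 to 2; none of these 11 was called. Choroid plexus (7 of 7, median -2.40) and oligodendrocyte markers (6 of 6, -0.11) were lower with 0 called, and the thalamus marker Prkcd was called lower (-0.62, adjusted p = 0.00681). At basal state all 9 GABAergic neuron markers were also higher in Glu-CB1-KO mice (median 0.09), and 6 of 9 were lower in GABA-CB1-KO mice (-0.05), with 0 called. The Rab3b ranges of the genotypes overlapped at that state in both lines. The part of these marker lists in the Rab3b and Rab3c differences was not tested.

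**Figure D5:**
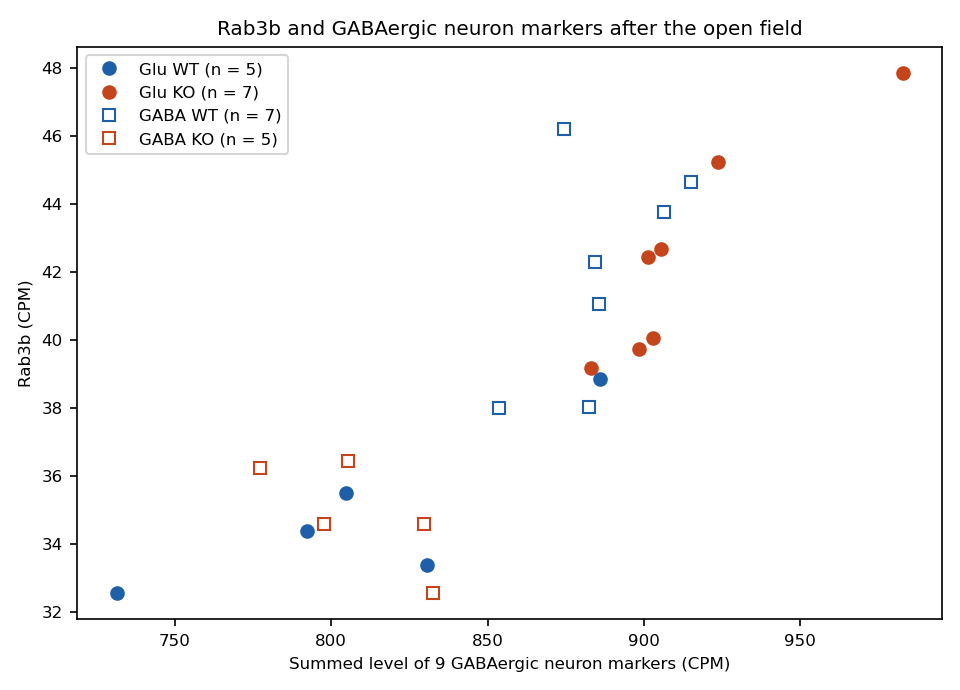
Rab3b (y axis, CPM) against the summed level of 9 GABAergic neuron markers (x axis, CPM) in the 24 OF libraries; filled circles are the Glu-CB1 line, open squares the GABA-CB1 line, blue CB1-WT and red CB1-KO. Glu-CB1-KO libraries lie at the upper right and GABA-CB1-KO libraries at the lower left, the latter between 777 and 832 CPM of markers. Glu-CB1-WT libraries (731 to 886 CPM of markers) also lie mostly at the lower left. GABA-CB1-WT libraries (854 to 915 CPM of markers) overlap the Glu-CB1-KO libraries on both axes.

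OF exposure itself was compared with basal state within each line, with genotype as a term, and no member passed in either. In the Glu-CB1 line the count was 0 of 74 where 1.8% of 15355 genes passed, with 7 members (9.46%) at an unadjusted p under 0.05 beside 13.9% of all genes. The lowest adjusted p belonged to Snap29, a SNARE of intracellular membranes, at a log2 difference of 0.12 (SE 0.035, adjusted p = 0.0796). DESeq2 called Snap29 and 3.14% of all genes; Snap29 was also called by edgeR without Glu-CB1-KO basal replicate 3, and without Glu-CB1-KO OF replicate 5 Snap23 was called instead. In the GABA-CB1 line the count was 0 of 74 where 0.963% of 15374 genes passed, with 5 members (6.76%) unadjusted beside 12.1% of all genes, and DESeq2 called 0 where it called 1.69% of all genes. Without GABA-CB1-KO OF replicate 1 the count was again 0 members, where 1.4% of genes passed.

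Whether the genotype effect differed between the states was tested in each line, and again no member passed, nor did any gene (0%). At an unadjusted p under 0.05 there were 0 members in the Glu-CB1 line, beside 2.47% of all genes, and 10 in the GABA-CB1 line (13.5%), beside 14.6% of all genes. DESeq2 called 0 members in the first, where it called 0% of all genes, and 1, Stx6, in the second, where it called 0.176%. The change of the Svop genotype effect from basal state to OF in the GABA-CB1 line was 0.22 (SE 0.078, adjusted p = 0.230), and 0.11 (SE 0.034, adjusted p = 0.302) without GABA-CB1-KO OF replicate 1.

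Beyond the module, 54 other presynaptic genes were listed, of which 53 were tested: active zone and priming genes, vesicular transmitter transporters, vesicle endocytosis genes and presynaptic calcium channels. A single one of them was called in the 4 comparisons of CB1-KO and CB1-WT by line and state, Slc18a2, which encodes the vesicular monoamine transporter VMAT2. It had 3.24 to 4.77 CPM in GABA-CB1-WT and 1.37 to 2.67 CPM in GABA-CB1-KO basal libraries, with no overlap. Slc18a2 fell by 0.88 on the log2 scale (SE 0.14, adjusted p = 0.0171).

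Slc18a2 shared with Svop that GABA-CB1-KO OF replicate 1 was the highest of its group. Values were 4.68, 1.98, 1.93, 2.28 and 2.54 CPM in GABA-CB1-KO OF replicates 1 to 5 and 2.98 to 4.50 CPM in the wild-type libraries, so replicate 1 again lay above all the wild types. The OF difference was -0.46 (SE 0.20, adjusted p = 0.347). The lines differed by 1.12 (SE 0.19, adjusted p = 0.00404) at basal state. None of the 28 other active zone and priming genes, 17 endocytosis genes or 3 calcium channel genes passed in either line and state.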

How the data were processed

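RNA of the hippocampal CA region was sequenced from 48 libraries. The deposited values are raw counts of reads per gene: the authors amplified RNA with a single primer isothermal method, trimmed single-end reads, aligned them with STAR 2.6.0a to mm10 and counted them per gene and strand with featureCounts 1.6.2, with MultiQC 1.8 for quality reports. No depth normalization precedes these counts.

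Groups came from the sample labels. Genes with low counts were removed with filterByExpr in each comparison, libraries were scaled by TMM, and edgeR 4.0.16 (R 4.3.3) quasi-likelihood tests were run two-sided on whole tables, with Benjamini-Hochberg adjustment over all genes tested; called means an adjusted p under 0.05. The 12 comparisons were CB1-KO against CB1-WT by line and state and with states pooled, OF against basal by line, and the interactions of genotype with line and with state. Intervals are 95%. CPM used TMM scaling over the 48 libraries, and per-kb levels divided by exon length. Genes sharing sequence with a paralog may have lost or shared reads.

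The members and lists were chosen with earlier results of these data known. Named were called members, part of a fixed set of reference members, the member of lowest p where none was called, the highest and lowest member per role, called genes of the presynaptic list, and Cnr1. Members and genes given beyond that rule (Stx6, Sv2b beside the pooled result, Snap29, Snap23, Syt11, Snap91, Stxbp6 and marker genes) were chosen after their values were seen. Alternatives were DESeq2 1.42.0, RLE scaling, all 48 libraries fitted together, a looser filter (genes with 1 count or more) and a stricter one (10 counts or more per library), the range of the number in the sample title as a covariate, a replicate block, and leaving out each library. Those with the first principal component as a covariate, without the 4 libraries above 200 CPM of choroid plexus markers, and the full member tables without GABA-CB1-KO OF replicate 1 were chosen after seeing the data. Some items are not reported here. The test scripts were tested on simulated data.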

Additional observations from a re-analysis of the deposited data

Results flagged for a closer look

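Among the 8 members examined for single libraries far from the rest of their group, 6 of 64 groups of 5 to 7 libraries had a highest or lowest library beyond Dixon's 95% limit, and chance gives about 1 in 20. Svop was 249 CPM in GABA-CB1-KO OF replicate 1, with the next library of that group at 188, and 208 CPM in Glu-CB1-WT OF replicate 2, with the next at 201. Glu-CB1-KO basal replicate 2 was the lowest of its group for Vamp1 (143 CPM, next 160.4) and for Sv2b (700 CPM, next 849). GABA-CB1-KO basal replicate 2 was the lowest for Rab3c (610 CPM, next 744), and GABA-CB1-KO basal replicate 6 the highest for Syt9 (9.19 CPM, next 8.24).

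The effect of CB1 loss differed between the lines by the interaction test for 3 members. The log2 difference of the effects (Glu-CB1 minus GABA-CB1) was 0.34 for Svop at basal state, 0.55 for Rab3b after OF and 0.37 for Rab3c after OF.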

How the results depend on the processing

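Each count of called members was recomputed under the alternatives, and 280 of 348 recomputed counts lay within 1.5 times the reported one. This total includes comparisons with a reported count of 0, where a recomputed 0 was taken as the same. The Glu-CB1 pooled count held in 3 of 9 alternatives and 5 of 24 fits without 1 library. These were 5 of 9 and 18 of 24 for GABA-CB1 pooled. For the difference between the lines they were 8 of 9 and 24 of 24 at basal state and 5 of 9 and 9 of 24 after OF. With DESeq2 the count was 2 for Glu-CB1 mice after OF, 5 for GABA-CB1 mice at basal state, 3 after OF and 5 pooled, 1 (Snap29) for OF against basal in Glu-CB1 mice and 1 (Stx6) for the change of the GABA-CB1 genotype effect with state. With all 48 libraries in a single fit it was 0 for Glu-CB1 mice after OF, 0 for Glu-CB1 pooled, 1 for OF against basal in Glu-CB1 mice and 1 for the difference between the lines after OF. Rimbp2 (adjusted p = 0.110) and Unc13b (0.267) were also not called in that fit. The Glu-CB1 pooled count was also 0 with RLE scaling, with no filter beyond 1 count, with at least 10 counts in every library, with the title number range and without the libraries high in choroid plexus markers. The title number range gave 2 members for the difference between the lines at basal state and 1 after OF. The first principal component as covariate gave 3 for Glu-CB1 mice after OF and 4 for GABA-CB1 pooled. Without the libraries high in choroid plexus markers the GABA-CB1 pooled count was 4, the difference between the lines after OF gave 1, and Svop in GABA-CB1 mice after OF turned to 0.022. Counts over all genes moved under the 9 alternatives as well. For Glu-CB1 mice they ran from 3 to 123 after OF, 31 to 106 pooled and 117 to 482 for OF against basal. For GABA-CB1 mice they ran from 8 to 110 at basal state, 1 to 142 after OF and 19 to 131 pooled. For the difference between the lines they ran from 30 to 79 at basal state and 53 to 199 after OF. The cause of these changes was not tested.

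Leaving out 1 library gave 1 to 2 called members for Glu-CB1 mice after OF, 0 to 1 for Glu-CB1 pooled, 1 to 5 for GABA-CB1 pooled, 0 to 1 for OF against basal in Glu-CB1 mice and 1 to 2 for the difference between the lines after OF. Over all genes these fits called 14 to 48, 24 to 97, 37 to 137, 149 to 440 and 50 to 112 genes, in the same order. Svop in GABA-CB1 mice after OF ranged from -0.12 to 0.029, and it was above 0 without replicate 2, 3, 4 or 5 of the GABA-CB1-KO group.

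Replicate numbers did not pair the libraries: same-numbered libraries correlated at -0.33 to 0.32 over 21 pairs, 4 of them above 0.1. With the replicate number as a block the count was 0 for Glu-CB1 mice after OF (Syt9 adjusted p = 0.161), 1 for GABA-CB1 mice at basal state (Rimbp2 0.0739), 1 pooled (Unc13b 0.0850) and 1 for the difference between the lines after OF (Rab3c 0.0781). Over all genes the block gave 3, 8, 19 and 54 called genes in that order, against 41, 37, 55 and 87 without it. The other counts of members did not change with the block.

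Of the 80 members, 6 had too few counts to be tested. Over all genes, DESeq2 called 12 genes against 3 by edgeR for Glu-CB1 mice at basal state, 123 against 41 after OF and 106 against 42 pooled, 110 against 37 for GABA-CB1 mice at basal state, 142 against 3 after OF and 131 against 55 pooled. It called 482 against 276 and 260 against 148 for OF in Glu-CB1 and GABA-CB1 mice, 79 against 43 and 199 against 87 for the difference between the lines at basal state and after OF, and 27 against 0 for the change with state in GABA-CB1 mice; in Glu-CB1 mice that change gave 0 with both.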

Other observations

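The first principal component of the 500 most variable genes held 17.5% of the variance and did not follow the groups. Over the 48 libraries, Syt10 (r = 0.87) and Syt14 (0.82) were higher along it and Stx5a (-0.80), Stxbp2 (-0.69) and Stx3 (-0.66) went the other way, given as a description across libraries of all groups. Svop (-0.14), Rimbp2 (0.00), Vamp1 (-0.19), Syt9 (0.08) and Rab3b (0.10) were nearly unrelated to it, and Rab3c (0.58) was not.

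GABA-CB1-KO OF replicate 4, whose choroid plexus marker sum was 4067 CPM, held the highest or lowest level of the 48 libraries for 18 tested members, 14 of them lowest. Glu-CB1-KO basal replicate 2 did so for 17 and Glu-CB1-KO OF replicate 5 for 15, while GABA-CB1-KO OF replicate 1 did so for 10.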
